A study of Homo sapiens with 8 samples.

Results

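Messenger RNAs of 7 genes for proteins of the mitotic spindle were followed through an immunoprecipitation (IP) of hnRNP U, a nuclear protein that binds RNA and DNA and is also called SAF-A. The genes were HMMR, ASPM, TPX2, CKAP5, NUSAP1, PRC1 and CKAP2, and each was found by its symbol, which gave 7 of the 13471 genes in the table. HMMR and ASPM were chosen by their FPKM in the IP libraries of the 2 phases, HMMR because it loses this signal in mitosis and ASPM because it keeps it. Their values are therefore given as a description, with no test. The other 5 were taken as further spindle genes to be placed between these ends, and they were tested.

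The spindle is built of microtubules that are nucleated, lengthened and bundled by such proteins. ASPM binds microtubule minus ends at the spindle poles, and its loss causes microcephaly. HMMR, also known as RHAMM, is a coiled-coil protein that helps to place TPX2 on the spindle. TPX2 activates the kinase Aurora A and promotes microtubule nucleation once the GTPase Ran has released it from importins. CKAP5, also known as ch-TOG, is a microtubule polymerase, and CKAP2 promotes microtubule growth in the spindle. NUSAP1 bundles microtubules near chromosomes, and PRC1 crosslinks antiparallel microtubules in the central spindle. Transcripts of such genes are known to be low in G1 and S phase and high in G2 and mitosis.

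The cells were hTERT-RPE1, cells of the human retinal pigment epithelium that grow without limit because they carry telomerase. Interphase cells were held for 24 h in 2 mM thymidine, which stalls DNA replication. Mitotic cells went through the same 24 h block, 6 h without thymidine and a night in S-trityl-L-cysteine (STLC), an inhibitor of the kinesin Eg5 that stops cells with monopolar spindles. All groups thus came from thymidine-treated cells, and the phase cannot be told apart from the drug that holds it. Both phases were sequenced without IP and after IP with an antibody to hnRNP U, in 2 replicates of each of the 4 groups. Cells were lysed in detergent and the lysate was cleared. Ribosomal RNA was then removed and libraries that keep the strand were made. Nothing says whether the replicates were separate cultures, so p-values measure the spread between these libraries, which may be technical. A mock IP was not analysed here.

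Values are FPKM, fragments scaled by transcript length and by the mapped fragments of the library, as the authors deposited them. The number of fragments per library is unknown. Relative depth was estimated from the most frequent ratio of low values to those of interphase without IP replicate 1, taken as a whole-fragment step. This placed the libraries at 0.639 to 1.188 of the depth of that library. The estimate is rough, since only 50 to 140 of 2200 low genes lay on that ratio in the other libraries. Both extremes were libraries of the mitotic IP and rested on 61 and 50 genes. Between replicates of a group, Pearson's r over genes was 0.989 to 0.995. The 10 highest genes held 58.4% to 63.0% of the FPKM sum without IP and 12.4% to 20.6% in the IP. Phase labels were checked with marker genes. In RNA without IP all 8 listed genes of G2 and mitosis were called higher in mitosis (median log2 fold change 1.70) and 6 of 7 genes of G1/S and S phase were called lower (median -0.88). Of 10 retinal pigment epithelium markers 5 were measured, and RPE65, RLBP1, BEST1, TYR and TTR had no values. PMEL, a pigment granule protein, stayed between 0.032 and 0.144 FPKM, whereas the transcription factors MITF (7.06 to 33.2 FPKM) and OTX2 (3.33 to 22.2 FPKM) were detected in all 8 libraries, as were the keratins KRT8 and KRT18.

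The first comparison concerned the level of these mRNAs without IP. All 5 tested genes rose in mitosis, by log2 fold changes of 0.99 for NUSAP1 to 2.11 for TPX2, and HMMR and ASPM lay above them. Without IP, 26.2% of all 13471 genes were called higher in mitosis and 25.5% lower (51.7% in either direction), and the median of all genes was 0.00. Fold changes here and below are differences of log2(FPKM + 1), tested with limma across all genes, with Benjamini-Hochberg adjustment and a threshold of 0.05. In bulk RNA, more cells in which a gene is active and more RNA per cell cannot be told apart.

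At the spindle poles, ASPM had 6.57 and 5.16 FPKM in the interphase replicates and 41.3 and 45.2 FPKM in the mitotic replicates. HMMR had 9.19 and 8.97 FPKM in interphase and 58.6 and 57.5 FPKM in mitosis. The log2 differences without IP were 2.69 (SE 0.15) for ASPM and 2.55 (SE 0.10) for HMMR, at percentiles 99.7 and 99.62 of all genes. TPX2, the Aurora A activator, rose from 29.9 and 30.0 to 129 and 136 FPKM (log2 fold change 2.11, SE 0.10, limma adjusted p 2.7e-06). Its replicates differed far less than its phases.

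Among the genes for microtubule growth, CKAP5 rose from 11.7 and 11.9 to 48.6 and 45.8 FPKM (log2 fold change 1.92, SE 0.12, limma adjusted p 9.38e-06). Its interval in the file also covers SNORD67, a small nucleolar RNA within the gene, so its values are uncertain to that extent. CKAP2 rose from 22.6 and 22.4 to 86.3 and 96.6 FPKM (1.98, SE 0.12, adjusted p 6.96e-06 by limma). Of the bundling proteins, PRC1 rose from 40.8 and 36.0 to 131 and 138 FPKM (1.78, SE 0.12, adjusted p 1.28e-05 by limma). NUSAP1 rose least, from 26.1 and 29.7 to 55.9 and 56.6 FPKM (0.99, SE 0.11, adjusted p 0.000146 by limma). The replicate pairs of NUSAP1, 0.91 and 1.07, lay below those of each of the other 6 genes. The pairs of PRC1, CKAP5 and CKAP2 overlapped in sequence, between 1.66 and 2.06, so their order is not fixed by these data. Levels per length also reordered. PRC1 was highest in interphase at 38.4 ± 3.35 FPKM (mean ± SD, n = 2), and in mitosis PRC1 (134 ± 4.47 FPKM) and TPX2 (132 ± 4.99 FPKM) did not differ beyond their spread. ASPM was lowest in both phases.

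**Figure D1:**
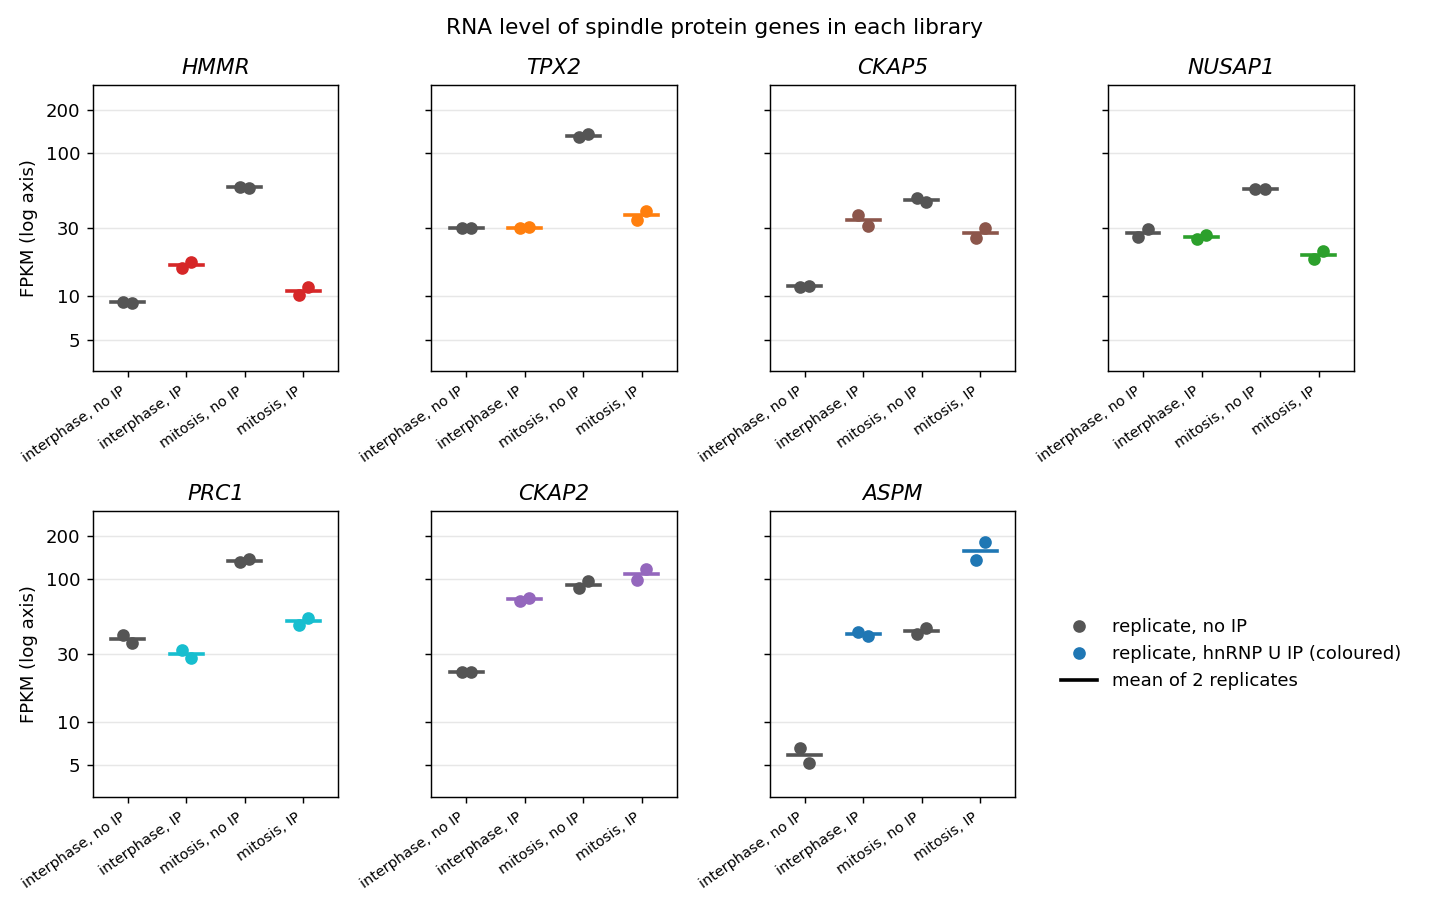
FPKM of each gene on a log axis in the 4 groups, with a point for each of 2 replicates and a line at their mean; grey is RNA without IP and colour is the hnRNP U IP. All 7 genes were higher in mitosis than in interphase without IP, and in the mitotic IP ASPM reached 158 FPKM on average while HMMR stood at 10.9 FPKM.

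Because these mRNAs moved together between phases, their promoters are shown. Genes expressed late in the cell cycle are known to carry a CHR element, the site through which the DREAM and MuvB complexes act, and CCAAT boxes, which bind NF-Y. RefSeq windows (GRCh38.p14, 250 bases before to 50 after the start) were matched for 6 of the 7 genes, TPX2 being the exception. The letters TTTGAA, on either strand, occurred in 5 of these 6 windows (HMMR, ASPM, CKAP5, NUSAP1 and PRC1), and in 15.4% of the 27305 promoter windows of RefSeq. TTCGAA, the other form searched (1.45% of windows), occurred in none of the 6. CCAAT, on either strand, occurred in the same 5 windows, against 35.7% of all windows. HMMR had 5 CCAAT matches, of which 2 share bases, ASPM had 4 and NUSAP1 had 3, whereas 3.42% of all windows held 3 or more. The CKAP2 window held neither element. For HMMR, PRC1 and CKAP2 the GENCODE start of the gene lies upstream of the RefSeq window, so that only the RefSeq start was searched. Matches are a description of letters and not evidence of binding. The stretches below run 5′ to 3′ on the strand of the gene, with TTTGAA (or TTCAAA, its reverse complement) and CCAAT (or ATTGG) in capitals. They show the tandem repeat in HMMR, the single copies near the start in PRC1 and NUSAP1, and the copies farther upstream in CKAP5, which has another after its start, and ASPM.
HMMR, chr5:163460595-163460624 (+), bases -37 to -8: gtggggagaTTTGAATTTGAAaccggtagg
PRC1, chr15:90994538-90994567 (-), bases -32 to -3: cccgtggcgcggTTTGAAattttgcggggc
NUSAP1, chr15:41332882-41332911 (+), bases 2 to 31 after the start: tggcgccagggaTTTGAAccgcgctgacga
CKAP5, chr11:46846336-46846365 (-), bases -85 to -56: gcccacaggcctTTCAAAtggaCCAATaaa
ASPM, chr1:197146695-197146789 (-), bases -120 to -26: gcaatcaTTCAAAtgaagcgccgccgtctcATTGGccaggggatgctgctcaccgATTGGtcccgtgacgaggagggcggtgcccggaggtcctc

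The next comparison asked which of these mRNAs were enriched with hnRNP U in interphase. CKAP2 and CKAP5, the genes for microtubule growth, rose in the IP, PRC1 fell slightly, and TPX2 and NUSAP1 were not called. Thus 2 of 5 tested genes were higher and 1 was lower, where 37.6% and 37% of all genes were (74.6% in either direction). The median of the 5 was 0.02, equal to that of all genes.

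ASPM had 42.9 and 40.1 FPKM in the interphase IP. Against its level without IP this is a log2 difference of 2.64 (SE 0.15, replicate pairs 2.54 and 2.74), at percentile 99.97 of all genes. HMMR had 15.8 and 17.3 FPKM in the IP, a difference of 0.80 (SE 0.10). The authors' deposited table gives IP to total ratios of 6.53 and 7.77 for ASPM and 1.72 and 1.93 for HMMR.

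CKAP2 had 70.2 and 74.1 FPKM in the IP libraries against 22.6 and 22.4 FPKM without, and so rose by a log2 fold change of 1.64 (SE 0.12, limma adjusted p 2.7e-06). CKAP5 rose to 37.1 and 31.0 FPKM, a log2 fold change of 1.45 (SE 0.12, limma adjusted p 6.17e-06). TPX2 had 30.3 and 30.4 FPKM in the IP, nearly its level without IP (log2 fold change 0.02, SE 0.10, limma adjusted p 0.876). NUSAP1 had 25.4 and 26.7 FPKM in the IP, a range that overlaps that without IP (-0.09, SE 0.11, limma adjusted p 0.452). PRC1 fell from 40.8 and 36.0 to 32.2 and 28.1 FPKM (-0.34, SE 0.12, limma adjusted p 0.0253). The PRC1 call was lost when each library was centred on its median (-0.22, adjusted p 0.117), and also without interphase no IP replicate 1 (-0.25, adjusted p 0.163) or interphase IP replicate 2 (-0.25, adjusted p 0.134).

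In mitosis the IP gave another picture, with 4 of the 5 tested genes lower in the IP than without it. Of all genes 31.7% were called lower and 32.8% higher in this comparison (64.5% in either direction). The median of the 5 was -1.39, against 0.01 for all genes. TPX2, NUSAP1, PRC1 and CKAP5 fell, in that order of size, and CKAP2 did not pass the test.

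HMMR had 10.3 and 11.6 FPKM in the mitotic IP against 58.6 and 57.5 FPKM without IP, a log2 difference of -2.31 (SE 0.10). It lay at percentile 0.48 of all genes, near the low end. ASPM had 135 and 180 FPKM in the mitotic IP, a difference of 1.83 (SE 0.15) and percentile 99.3. The authors' deposited table gives IP to total ratios of 0.176 and 0.201 for HMMR in mitosis and of 3.26 and 3.99 for ASPM.

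TPX2 fell from 129 and 136 FPKM without IP to 34.2 and 39.6 FPKM in the IP (log2 fold change -1.82, SE 0.10, limma adjusted p 6.4e-06). NUSAP1 fell from 55.9 and 56.6 to 18.2 and 20.7 FPKM (-1.49, SE 0.11, limma adjusted p 1.01e-05). PRC1 fell to 47.5 and 53.8 FPKM (-1.39, SE 0.12, limma adjusted p 1.86e-05). The replicate pairs of NUSAP1 and PRC1 overlapped, so these genes did not differ from each other beyond their spread. CKAP5 fell from 48.6 and 45.8 to 25.6 and 30.1 FPKM (-0.74, SE 0.12, limma adjusted p 0.000569). CKAP2 had 98.4 and 117 FPKM in the IP against 86.3 and 96.6 FPKM without, so its IP libraries were above both others by less than the test asks for (0.23, SE 0.12, limma adjusted p 0.116). CKAP2 is also the gene whose sign depended on processing. It was called higher with libraries centred on their medians (0.32, adjusted p 0.042) or without mitosis IP replicate 1 (0.35, adjusted p 0.0468). It was nearer to 0 with quantile normalization (0.09, adjusted p 0.541) and without mitosis no IP replicate 1 (0.15, adjusted p 0.43) or mitosis IP replicate 2 (0.11, adjusted p 0.512). It was called lower after removal of trends in length and GC content (-0.40, adjusted p 0.00488).

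**Figure D2:**
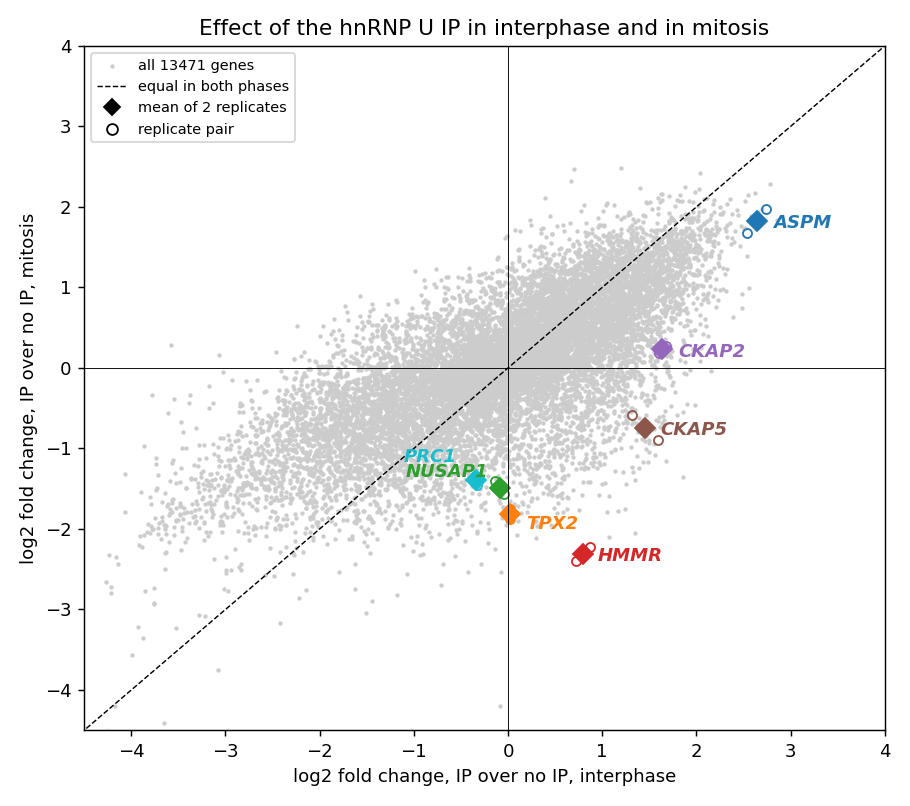
Log2 fold change of IP over no IP in interphase (horizontal) and mitosis (vertical), with diamonds at the fitted value of each named gene, open circles at its 2 replicate pairs and all 13471 genes in grey (10 lie beyond the axes). Each tested gene lies below the dashed line of equal effect and was called lower for the difference between phases, as were 19.9% of all genes. ASPM (2.64 and 1.83) and HMMR (0.80 and -2.31) also lie below the line. Both had been chosen by their IP signal in these phases, so their places are not a result.

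The difference between these effects was then tested directly as an interaction. All 5 tested genes were called lower, as were 19.9% of all genes, with 27.2% called higher and 47.1% called in either direction. Lower and higher refer to the signed log2 IP effect in mitosis against interphase, not to its size. For TPX2 (0.02 and then -1.82), NUSAP1 (-0.09 and -1.49) and PRC1 (-0.34 and -1.39) the effect was greater in size in mitosis. The median difference of the 5 tested genes was -1.41, against 0.07 for all genes. The libraries without IP enter both this difference and the comparison of levels between phases, so the values are not independent of each other.

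HMMR was at one end, with a difference of -3.11 (SE 0.14, replicate pairs -3.12 and -3.09), at percentile 0.04 of all genes. ASPM was at the other, with -0.81 (SE 0.22, pairs -0.85 and -0.77), at percentile 11.42. CKAP5 came next to HMMR at -2.20 (SE 0.17, pairs -2.48 and -1.91, limma adjusted p 6.14e-05), since its mRNA was above the level without IP in interphase and below it in mitosis. TPX2 followed at -1.84 (SE 0.14, limma adjusted p 6.6e-05). CKAP2 (-1.41, SE 0.16, limma adjusted p 0.000255) and NUSAP1 (-1.40, SE 0.15, limma adjusted p 0.000179) could not be ordered, because their replicate pairs overlapped. PRC1 was nearest to ASPM at -1.05 (SE 0.17, limma adjusted p 0.0011). The fitted values of all 5 tested genes lay between those of HMMR and ASPM, but these had been chosen as the ends, so this placing is not a result. Apart from CKAP2 and NUSAP1 the replicate pairs of neighbours in this order did not overlap. Pairs were formed by replicate number, which may not mark a shared culture, so the order is not fixed by them. PRC1 and ASPM lay close for their SEs. With length and GC trends removed TPX2 (-1.71) was lower than CKAP5 (-1.65). CKAP5 was the tested gene called higher in the IP in interphase and lower in mitosis.

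The order in each phase was not that of the difference. In interphase PRC1, NUSAP1 and TPX2 were lowest, followed by HMMR, CKAP5, CKAP2 and ASPM. In mitosis HMMR was lowest, followed by TPX2, NUSAP1, PRC1, CKAP5, CKAP2 and ASPM. CKAP2 was thus next below ASPM in both phases, and HMMR stood in the middle in interphase and at the bottom in mitosis. ASPM and HMMR had been chosen by their IP signal in these phases, so their own places are not a result.

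**Figure D3:**
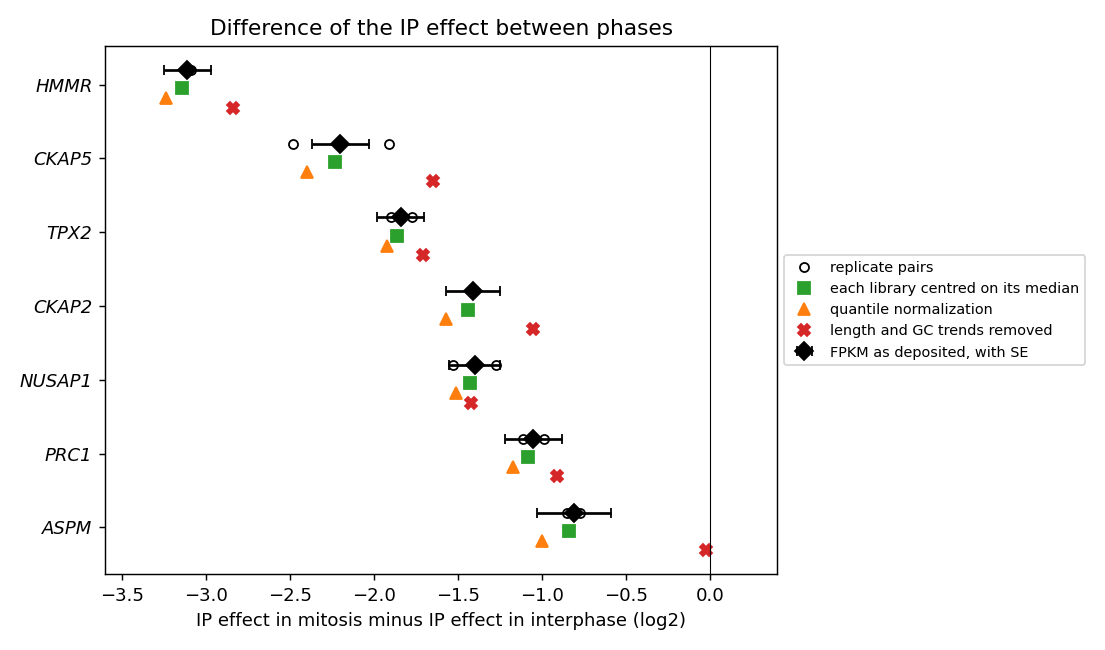
IP effect in mitosis minus IP effect in interphase (log2) for each gene, with the fitted value and its SE in black, the 2 replicate pairs as open circles, and the value after 3 other ways of processing in colour. The points run from -3.11 for HMMR to -0.81 for ASPM, and removing trends with transcript length and GC content brought ASPM to -0.02 and left HMMR at -2.84.

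Seen in the IP libraries alone, most of these mRNAs differed far less between phases than they did without IP. From interphase to mitosis the IP level of TPX2 rose from 30.3 ± 0.119 to 36.9 ± 3.88 FPKM (mean ± SD, n = 2; log2 fold change 0.27, SE 0.10, limma adjusted p 0.0456). PRC1 (0.73, SE 0.12, limma adjusted p 0.000629) and CKAP2 (0.57, SE 0.12, limma adjusted p 0.0026) rose, and NUSAP1 fell (-0.41, SE 0.11, limma adjusted p 0.00895). CKAP5 was not called (-0.28, SE 0.12, limma adjusted p 0.0706). So 3 of 5 were called higher and 1 lower, where 35.8% and 25.6% of all genes were (61.4% in either direction). ASPM had a difference of 1.89 (SE 0.15) and HMMR of -0.56 (SE 0.10). They were the ends of the order, but both genes had been chosen by this signal, so their place is not a result.

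These small changes were the least stable. The TPX2 call was lost with median centring (0.16, adjusted p 0.219), with quantile normalization (0.04, adjusted p 0.731) and in 7 of 8 fits that left out a library, the exception being that without mitosis IP replicate 1. Its value was 0.17 (adjusted p 0.261) without mitosis IP replicate 2 and 0.27 in the other 6 (adjusted p 0.0644 to 0.104). The CKAP2 call was lost with quantile normalization (0.32, adjusted p 0.0513), and the NUSAP1 call without mitosis IP replicate 1 (-0.32, adjusted p 0.0644). CKAP5 was called lower with median centring (-0.39, adjusted p 0.0184), with quantile normalization (-0.47, adjusted p 0.0125), without interphase IP replicate 2 (-0.40, adjusted p 0.03) and without mitosis IP replicate 2 (-0.39, adjusted p 0.0404). It was nearer to 0 without interphase IP replicate 1 (-0.15, adjusted p 0.333) or mitosis IP replicate 1 (-0.17, adjusted p 0.346), and 0.03 (adjusted p 0.842) with length and GC trends removed.

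The 7 genes were then compared by the build of their transcripts. Annotation was from GENCODE release 29 (GRCh38, the assembly of hg38), taking the longest transcript of each gene, and all 7 genes are protein-coding. HMMR (ENSG00000072571.19) lies on chromosome 5 (163460203 to 163491945, plus strand). Its transcript has 3102 nt in 18 exons and 36.7% GC, at percentile 4.6 of the matched genes. The HMMR interval in the file ends at 163494058, beyond the annotated gene. ASPM (ENSG00000066279.17) lies on chromosome 1 (197084128 to 197146694, minus strand) and has 10887 nt in 28 exons, with a single exon of 4755 nt that makes up 43.7% of the transcript, and 37.1% GC. CKAP2 (ENSG00000136108.14, chromosome 13, 52455429 to 52476628, plus strand) has 3629 nt in 9 exons, the longest of 1734 nt, and 36.8% GC.

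TPX2 (chromosome 20, 31739271 to 31801805, plus strand) has 3605 nt in 19 exons and 46.8% GC. PRC1 (chromosome 15, 90966038 to 90995629, minus strand) has 4087 nt in 14 exons and 48.1% GC. NUSAP1 (chromosome 15, 41332694 to 41381050, plus strand) is the shortest with 2409 nt in 11 exons and 42.6% GC. CKAP5 (chromosome 11, 46743048 to 46846308, minus strand) has 7121 nt in 44 exons and 44.2% GC.

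With trends in length and GC content removed from each library, the ASPM values became 1.07 in interphase and 1.05 in mitosis, and its difference between phases -0.02. The HMMR value in interphase became -0.10, and its mitotic value -2.94. CKAP2 and CKAP5 stayed called higher in interphase but with smaller values (0.65 and 0.52), and the mitotic value of CKAP5 became -1.13. TPX2 (-0.24) and NUSAP1 (-0.39) were then called lower in interphase, with limma adjusted p of 0.0489 and 0.00727. All 5 tested genes stayed called for the difference between phases, at -0.91 for PRC1 to -1.71 for TPX2. Of all genes, 5723 of 13141 were called for this difference after the removal.

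Other spindle genes were read from 4 lists, which held 56 measured genes. Their counts stand beside all genes, of which 26.2% were called higher and 25.5% lower in mitosis without IP. The signed IP effect was called lower in mitosis for 19.9% of all genes and higher for 27.2%. Of 9 genes for central spindle and cytokinesis, where PRC1 acts, all 9 were higher in mitosis without IP (median 2.12). Of these, 6 had a lower and 1 a higher signed IP effect in mitosis (median difference -1.67). ANLN, the cytokinetic scaffold anillin, had a difference of -2.47 (SE 0.14, limma adjusted p 4.83e-05), with 27.3, 77.2, 122 and 60.5 FPKM on average in interphase without and with IP and in mitosis without and with IP. Its interval overlaps that of KIAA0895. CEP55, an abscission protein, had -2.36 (SE 0.17, limma adjusted p 5.28e-05), with 84.2, 146, 289 and 96.4 FPKM. RACGAP1, a subunit of centralspindlin, went the other way with a difference of 0.80 (SE 0.19, limma adjusted p 0.00772) and 300 FPKM in the mitotic IP against 143 FPKM without. This list thus held genes in both directions.

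Of 15 measured genes for k-fibre and microtubule-binding proteins, 11 were higher in mitosis without IP (median 1.26). In this list 7 had a lower and 2 a higher signed IP effect in mitosis (median difference -0.59), where 19.9% and 27.2% of all genes did. CKAP2L, the paralog of CKAP2, had a difference of -2.16 (SE 0.15, limma adjusted p 5.28e-05), with 10.4, 29.8, 50.6 and 30.2 FPKM in the same order of groups. KNSTRN, a kinetochore and spindle protein, had a larger effect in mitosis (0.57, SE 0.20, limma adjusted p 0.0422). In the list of 11 genes for the Ran pathway and partners of TPX2 and HMMR, 8 were higher in mitosis without IP (median 0.70). In this list 5 had a higher and 4 a lower signed IP effect in mitosis (median difference 0.37), where 27.2% and 19.9% of all genes did. AURKA, the kinase that TPX2 activates, rose in the IP from 41.9 to 444 FPKM (log2 fold change 3.37, SE 0.13, limma adjusted p 8.49e-07), and without IP from 32.9 to 193 FPKM. KPNA2, an importin that holds TPX2, had 369 FPKM in the mitotic IP against 111 FPKM without. KIF11, the gene of Eg5, the target of STLC, had a difference of -1.63 (SE 0.18, limma adjusted p 0.000185). AURKA itself had a difference of 0.86 (SE 0.18, limma adjusted p 0.00517), of opposite sign to that of TPX2.

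Of 21 genes for spindle poles and microtubule nucleation, 12 were higher and 4 lower in mitosis without IP (median 0.63). In this list 8 had a lower and 4 a higher signed IP effect in mitosis, where 19.9% and 27.2% of all genes did. The median difference was 0.09, near the 0.07 of all genes. CDK5RAP2, a centrosomal scaffold, had a difference of -1.93 (SE 0.21, limma adjusted p 0.000196). HAUS7, a subunit of the augmin complex, had 1.44 (SE 0.20, limma adjusted p 0.000527), and its interval overlaps that of BGN.

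**Figure D4:**
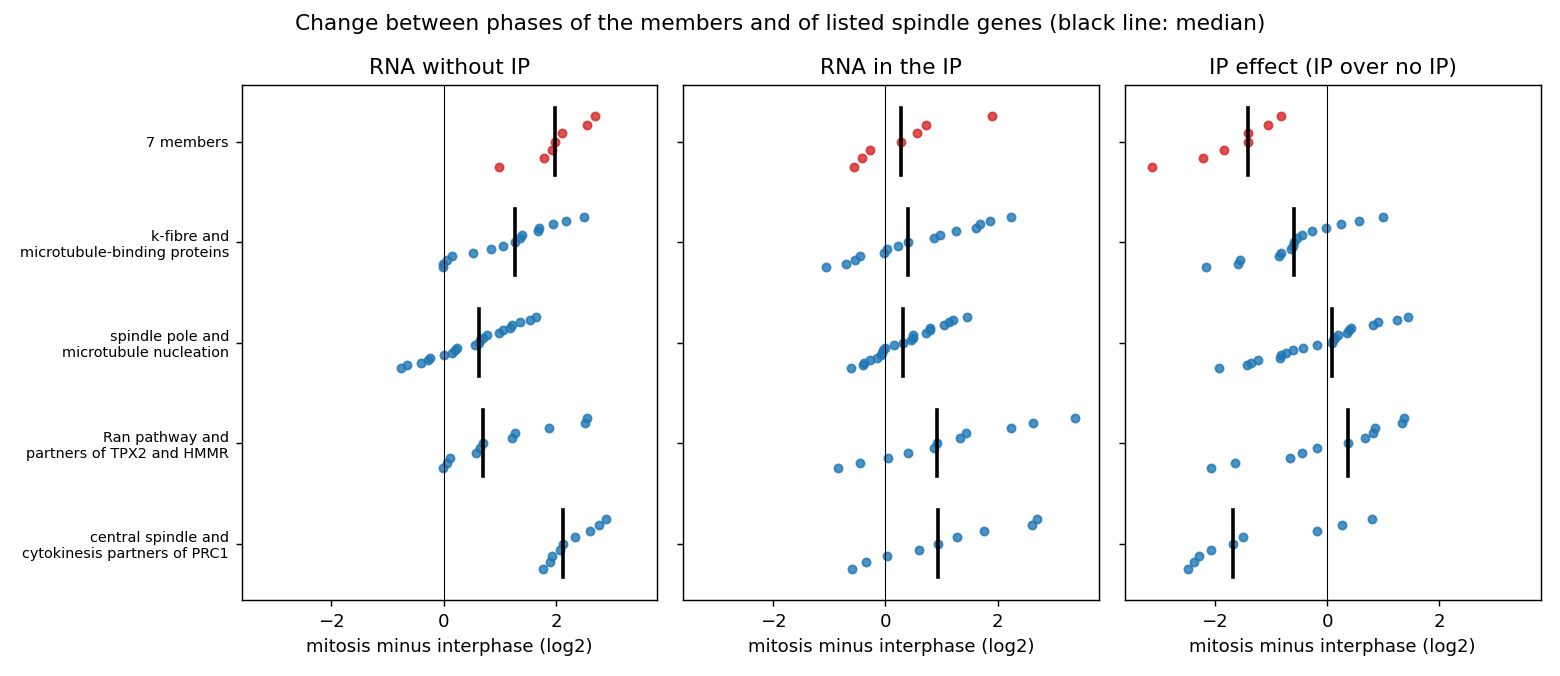
Mitosis minus interphase on the log2 scale for the level without IP, the level in the IP and the IP effect, with a point for each gene of the 7 described and of 4 lists of spindle genes and a black line at each median. The median difference of the IP effect between phases was -1.41 for the 7 genes, -1.67 for central spindle genes and 0.37 for the Ran pathway list. The 7 genes include HMMR and ASPM, which had been chosen by their IP signal.

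Finally, the genes most like HMMR and ASPM were sought by the distance between centred log2 means of the 4 groups, among 6398 other genes with at least 5 FPKM on average and no overlapping interval. Nearest to HMMR was NUF2, a subunit of the kinetochore NDC80 complex, at a distance of 0.59, with 17.8 ± 4.1, 19.5 ± 0.301, 76.3 ± 14.2 and 21.0 ± 2.6 FPKM (mean ± SD, n = 2) in interphase without and with IP and in mitosis without and with IP. SNORD3C (0.65), a copy of the U3 small nucleolar RNA whose reads cannot be told from its copies, and GTPBP4 (0.66), a GTPase of ribosome assembly, followed. The place of SNORD3C is uncertain, since it had 4.28 ± 3.79 FPKM in the interphase IP and 22.6 ± 14.9 FPKM in mitosis without IP. TPX2 was at 0.68 from HMMR, the nearest of the other members, and ASPM the farthest at 3.45. Near ASPM was MALAT1, an abundant nuclear lncRNA, at 0.46. The nearest member to ASPM was CKAP2, at 1.68. These distances rest on 4 group means.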

How the data were processed

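FPKM values of 8 libraries were taken from the gene table as deposited by the authors, per the file headers. The name of that table gives build hg38. TopHat and StringTie are named in the submitters' processing notes, with no version or role. The authors also deposited ratio columns, in which one FPKM is divided by another of the same replicate number, and these were recomputed. A table of lncRNAs on hg19, with identifiers in place of gene names, was not used. Genes were matched to GENCODE release 29 by symbol (12678) or synonym (463), 97.6% in all. Limma (version 3.58.1, R 4.3.3; lmFit, eBayes with trend) was run on log2(FPKM + 1) of all 13471 genes with a coefficient for each of 4 groups, no filter and 4 residual degrees of freedom, with Benjamini-Hochberg adjustment and a threshold of 0.05. The fit was tried on simulated data only for the comparison of phases without IP, so that trial says nothing of the IP comparisons. Alternatives were pseudocounts of 0.1 and 0.01, a mean of at least 1 FPKM, median centring, quantile normalization, removal of length and GC trends (splines with 5 degrees of freedom for each), a replicate block and leaving out each library.

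Members, lists and alternatives were chosen with earlier results of these data known. Named list genes were taken from the 2 largest calls in each direction for each list and comparison, and not all of these are named. AURKA was among them for the comparisons between phases with and without IP. For the difference of the IP effect KPNA2 (1.37) and DYNLL1 (1.33) were larger than AURKA. For likeness, 3 genes each were taken for HMMR and ASPM, and 2 of those near ASPM are not reported here.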

Additional observations from a re-analysis of the deposited data

Results flagged for a closer look

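The effect of the IP differed between interphase and mitosis for 5 tested genes, by the limma interaction: mitosis minus interphase was -2.20 for CKAP5, -1.84 for TPX2, -1.41 for CKAP2, -1.40 for NUSAP1 and -1.05 for PRC1, in both replicate pairs of each gene. In both pairs the HMMR value was above that without IP in interphase and below it in mitosis (-3.11), and this difference was not tested because the gene had been chosen for it.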

How the results depend on the processing

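For the 5 tested genes, 349 recomputed log2 fold changes kept their direction and their side of the threshold, 14 lost and 7 gained a call without changing sign, and 5 changed sign. The sign changes were those of NUSAP1 in interphase with median centring (0.03), of TPX2 in interphase with quantile normalization (-0.02) and with length and GC trends removed (-0.24), of CKAP2 in mitosis (-0.40) and of CKAP5 between phases in the IP (0.03) with the same removal. HMMR in interphase changed sign to -0.10 there. With that removal 5 tested genes were called in interphase, against 3 without it. Over all genes 7901 of 13141 were called with it, against 10051 of 13471 without it. The cause was not tested. The replicate number was used as a block in another fit, since groups share the numbers 1 and 2. This block left all 25 values on the same side of the threshold. For the difference between phases it called 5 of 5 tested genes and 6913 of all 13471 genes. Deviations of same-numbered libraries correlated at 0.088 to 0.528, and the labels do not say that a number marks a shared culture. Median centring moved the median of all genes by 0.12 in the interphase IP and by -0.11 between phases in the IP. Depth is unknown in absolute terms, so no counting interval is given.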
